A study of Bos taurus with 21 samples.

Results

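The gene examined was MIR423, through both arms of its hairpin, bta-miR-423-5p and bta-miR-423-3p (the prefix bta, for Bos taurus, is left out from here on), which were 2 of the 847 rows (298 with a known bovine name) in a table of small RNA from serum extracellular vesicles. Vesicles are membrane-bound particles that cells release, and blood holds those of many tissues. The 7 clinical cows had clinical mastitis, an udder inflammation with visible signs, the 7 subclinical cows had subclinical mastitis, in which visible signs are absent, and the 7 healthy cows were the controls. The labels used here hold no breed, age, infecting organism or therapy. The rows were taken by name, but miR-423-5p was chosen by its signal in these same 21 libraries, so its levels are described and not tested. In serum, fewer vesicles from a source and less miRNA per vesicle cannot be told apart.

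An miRNA hairpin is cut by the enzymes Drosha and Dicer into a short duplex, and usually 1 of its arms, 5p or 3p, is loaded into an Argonaute protein, where it guides the repression of messenger RNAs. The other arm is often degraded, so the arms of 1 hairpin can differ widely in level. miR-423-5p is an abundant miRNA of blood, proposed in people as a plasma marker of heart failure and also used at times as a normaliser for blood RNA measurements, a role that needs a steady level. In the RefSeq gene table of assembly ARS-UCD2.0, MIR423 lies within the span of NSRP1, which encodes a splicing regulator, between the protein-coding genes EFCAB5 and SLC6A4. That table does not say whether the hairpin is exonic or intronic, and the submitters' processing notes name another build, ARS-UCD1.2.

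The deposited value is a signal, the reads of a miRNA per 1000000 of the library's scaling total for known miRNAs. Known miRNAs summed to 1386 to 34565 reads in clinical libraries (median 3388), 3187 to 28045 in subclinical libraries (median 15960) and 1371 to 5706 in healthy libraries (median 2190). A single read was therefore worth 29.6 to 747.9 units of signal in clinical libraries, 36.4 to 321.0 in subclinical libraries and 180.2 to 750.8 in healthy libraries. Depth and group thus moved together, and the part of depth in the values below was not tested. PCR copies of 1 molecule were not told apart, so the intervals and limits given here hold counting error alone.

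miR-423-5p, the main product of the hairpin, was read in every one of the 21 libraries. It had its highest mean in subclinical cows and its lowest in clinical cows, and the spread between cows was wide. Clinical cows ran from 6750 to 14786 units of signal, with a median of 9171. Subclinical cows ran from 5974 to 75589, with a median of 21949. Healthy cows ran from 6160 to 36036, with a median of 14437. All 3 groups overlapped: the lowest value of all belonged to subclinical 4 and the highest to subclinical 3, while the clinical cows sat together in the lower part of both other ranges.

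The mean of miR-423-5p was 10276 ± 3088 for clinical cows, 28771 ± 24213 for subclinical cows and 17938 ± 11407 for healthy cows (SD, n = 7 each). Each of the 7 clinical cows lay below the subclinical mean and below the healthy mean. Of the subclinical cows, 5 lay above the highest clinical cow, as did 3 healthy cows. Against healthy cows, 4 subclinical cows were above the healthy mean and 3 below it, and 2 were above the highest healthy cow.

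**Figure D1:**
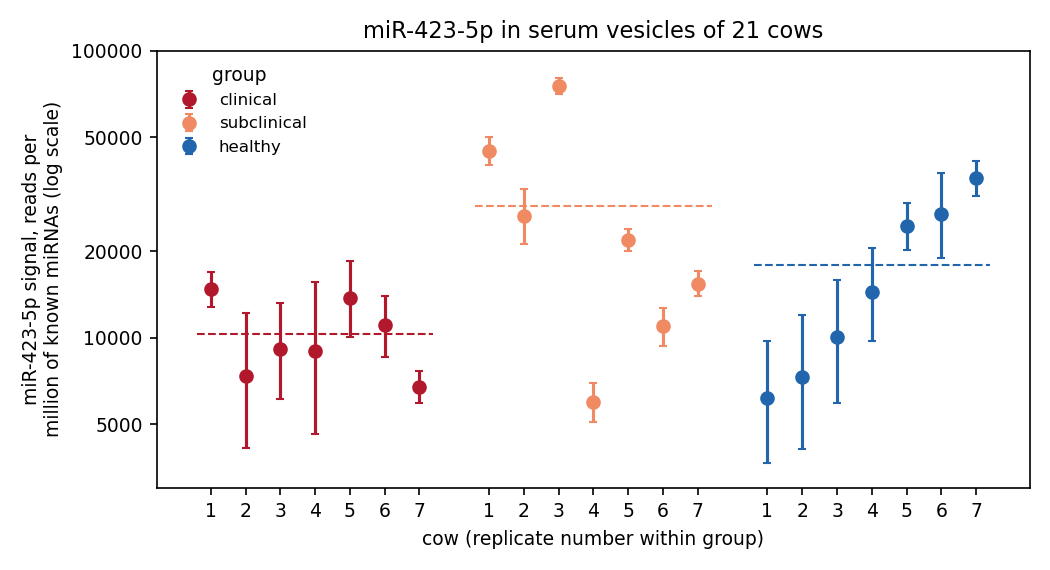
Signal of miR-423-5p in each of 21 cows (reads per 1000000 of the known scaling total, log axis) by group and replicate number. Points are single libraries, bars are exact 95% Poisson intervals for counting error, dashed lines are group means; the clinical cows lie between 6750 and 14786, inside the range of the subclinical cows (5974 to 75589).

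As a description of the same values, the fitted log2 differences of miR-423-5p, from 1 limma model of log2(signal + 1) over all rows and all 21 libraries, were −1.11 (SE 0.46) for clinical minus subclinical, 0.53 (SE 0.46) for subclinical minus healthy and −0.58 (SE 0.46) for clinical minus healthy. In that model the adjusted p passed 0.05 for 4.01% of 598 tested rows in clinical versus subclinical, 2.01% in subclinical versus healthy and 0% in clinical versus healthy, among all rows. Among the 131 known rows tested it was 1.53%, 3.05% and 0% in the same comparisons. At an unadjusted p under 0.05 limma had 12.4%, 13.4% and 6.19% of the 598 rows, the last being 37 rows in clinical versus healthy. The 3 comparisons share their libraries and are not independent of each other. The ratio of means was 2.80 with subclinical over clinical, and 2.04 without subclinical 3. With subclinical over healthy it was 1.60, and 1.17 without subclinical 3. With clinical over healthy it was 0.57, and 0.69 without healthy 7.

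As deposited, the spread of miR-423-5p within a group was narrowest in clinical and widest in subclinical cows, a difference that was not tested. The highest clinical cow had 2.19 times the signal of the lowest, against 12.7 times in subclinical and 5.85 times in healthy cows. The coefficient of variation, the SD as a percent of the mean, was 30.1% in clinical, 84.2% in subclinical and 63.6% in healthy cows. Counting error alone would give about 18.0%, 6.74% and 14.3% at these depths, in the same order of groups. The spread between subclinical cows was thus many times their counting error, while in clinical cows the 2 were closer. That order changed on 1 scale for known and numbered rows, described below, where the highest cow had 13.3 times the lowest in clinical, 9.90 times in subclinical and 25.5 times in healthy cows. By the coefficient of variation on that scale clinical cows were still lowest, at 94.4%, beside 95.6% in subclinical and 147% in healthy cows. Whether clinical and subclinical cows changed places thus depends on the measure. The number of reads behind these values was 596 in clinical, 2590 in subclinical and 430 in healthy libraries, and the thinnest libraries held 12 reads (clinical 4) and 15 reads (clinical 2 and healthy 2).

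The subclinical cows differed from each other by more than their counting intervals. Subclinical 3 had 994 reads of miR-423-5p, a signal of 75589 with an exact 95% Poisson interval of 70963 to 80439. Subclinical 1 had 312 reads and a signal of 44866 (40025 to 50131). Subclinical 4 had 164 reads and a signal of 5974 (5095 to 6961). Subclinical 4 was also the deepest subclinical library, with 28045 known reads. In healthy cows the highest signal, 36036 in healthy 7 (31215 to 41391), came from the deepest healthy library, but the next, 27027 in healthy 6 (18929 to 37417), came from the shallowest.

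By rank among the known miRNAs of a library, miR-423-5p was number 12 to 18 in clinical cows (median 15), number 3 to 20 in subclinical cows (median 11) and number 7 to 20 in healthy cows (median 14). miRNAs are of nearly equal length, so their values per 1000000 reads can be set side by side. By mean signal in clinical cows its neighbours were miR-21-5p (13044 ± 7595), an miRNA raised in many inflamed tissues, and miR-126-3p (9685 ± 6150), of endothelial cells. In subclinical cows it stood between miR-23a (47806 ± 10545) and miR-223 (24282 ± 11007), an miRNA abundant in neutrophils. In healthy cows it stood between miR-10174-3p (18525 ± 6114) and miR-21-5p (16691 ± 6650). The mean of each of these neighbours lay within 1 SD of the miR-423-5p mean in that group (SD of miR-423-5p, n = 7).

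The choice of scale mattered for the size of the miR-423-5p difference. Known miRNAs were scaled apart from the numbered rows, which carry no miRNA name, and the known rows made up 3.24 to 54.7% of both scaling totals in clinical, 13.5 to 51.3% in subclinical and 4.77 to 32.9% in healthy libraries. Per 1000000 of both totals together, miR-423-5p ran from 291 to 3862 in clinical cows (median 940), from 3063 to 30334 in subclinical cows (median 7570) and from 465 to 11848 in healthy cows (median 1121). On that scale 5 of 7 clinical cows were below the lowest subclinical cow, and all 7 subclinical cows were above the healthy mean of 2818, which was 1313 without healthy 7. Of the clinical cows, 2 of 7 were then above the healthy mean, against 0 as deposited. The fitted log2 difference grew to −2.80 (SE 0.68) for clinical minus subclinical and to 2.34 (SE 0.68) for subclinical minus healthy, and was −0.45 (SE 0.68) for clinical minus healthy. The median log2 difference of all known miRNAs was −2.13, 2.78 and 0.27 in the same comparisons on that scale, against −1.64, 2.23 and 0.19 as deposited. miR-423-5p therefore lay above the median known miRNA in clinical versus subclinical as deposited and below it on the joint scale, and in subclinical versus healthy it lay below that median on both scales. Many known miRNAs were at 0 reads in shallow libraries, which moves such medians, and the part of the zeros was not tested.

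The most abundant known miRNAs also set the scale. miR-1246, whose reads in people can include fragments of other small RNAs, had a signal of 47767 ± 28388 in clinical, 192744 ± 158785 in subclinical cows and 49802 ± 24589 in healthy cows (SD, n = 7). With its reads taken out of the total, miR-423-5p had 10781 ± 3141, 39815 ± 35661 and 18708 ± 11733 in the clinical, subclinical and healthy groups (SD, n = 7). Its fitted log2 difference was then −1.37 for clinical minus subclinical and 0.79 for subclinical minus healthy.

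A ratio of reads within a library does not depend on the scale. miR-423-5p was therefore set against the 4 most abundant members of a list of 24 miRNAs often proposed as normalisers in blood. Against miR-191, a widely expressed miRNA abundant in platelets, clinical libraries held 0.57 to 1 reads of miR-423-5p per read (median 0.76). Subclinical libraries held 0.78 to 4.46 (median 1.22) and healthy libraries 0.79 to 5.14 (median 1.25). Above the highest clinical cow were thus 6 of 7 subclinical and 5 of 7 healthy cows. The highest healthy ratio rests on 7 reads of miR-191 in healthy 6.

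Against miR-24-3p, a widely expressed miRNA, miR-423-5p had 0.88 to 1.42 reads per read in clinical, 0.64 to 8.88 in subclinical and 0.63 to 6 in healthy cows. Against miR-23a, from a cluster that also holds a miR-24 gene, it had 0.14 to 0.24, 0.11 to 1.37 and 0.13 to 0.51 in clinical, subclinical and healthy cows. Against let-7a-5p, of the let-7 family, it had 0.024 to 0.081, 0.039 to 0.77 and 0.034 to 0.20 in the same order. Groups overlapped for each of the 4 denominators. The difference of mean log2 ratios for clinical minus subclinical was −0.995 over miR-191, −0.996 over miR-24-3p, −1.33 over miR-23a and −1.70 over let-7a-5p. For subclinical minus healthy it was 0.05, 0.18, 0.76 and 1.11 over the same miRNAs. For clinical minus healthy it was −0.94, −0.81, −0.57 and −0.59.

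**Figure D2:**
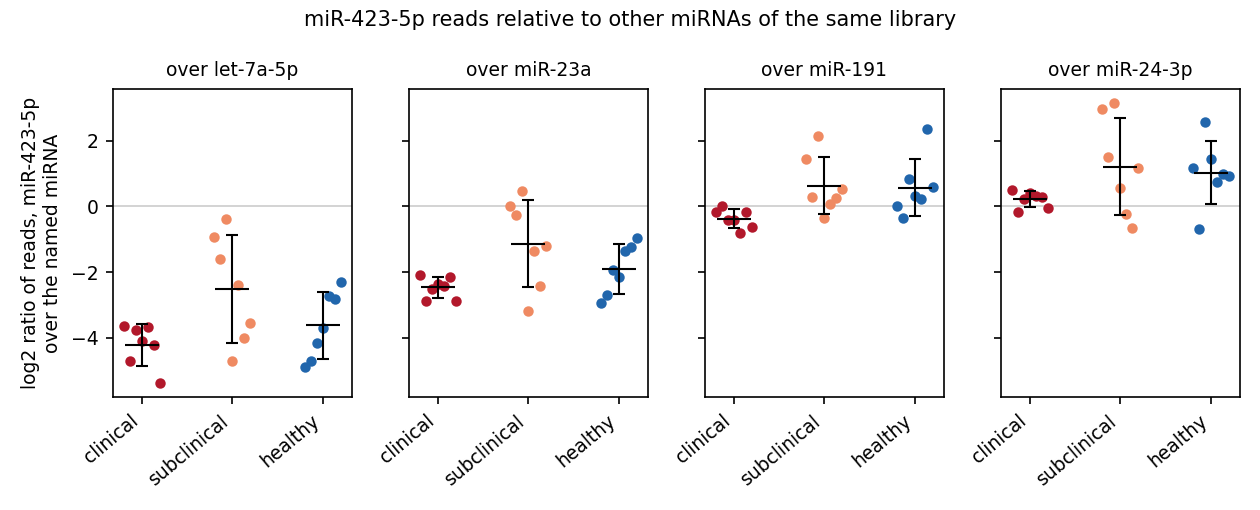
Log2 ratio of miR-423-5p reads to reads of let-7a-5p, miR-23a, miR-191 and miR-24-3p in the same library, by group. Points are cows and bars show the mean and SD (n = 7). The SD in clinical cows ran from 0.25 over miR-24-3p to 0.64 over let-7a-5p. It ran from 0.87 (miR-191) to 1.63 (let-7a-5p) in subclinical cows and from 0.75 (miR-23a) to 1.02 (let-7a-5p) in healthy cows.

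Steadiness was compared among the 27 known miRNAs that were above 0 in all 21 libraries. Over all cows the coefficient of variation of miR-423-5p was 87.8%, number 4 of the 27, behind miR-2478 (184%), miR-1246 (117%) and miR-574 (91.0%). The listed normalisers among the 27 were lower: miR-126-3p at 63.7%, miR-24-3p at 58.6%, let-7g at 48.1%, miR-191 at 45.8%, let-7a-5p at 27.3% and miR-23a at 20.6%. Listed normalisers at 0 in some libraries fall outside this comparison. Their coefficients of variation ran from 62.2% (miR-92a) to 440% (miR-30e-5p), below and above that of miR-423-5p. The coefficient of miR-423-5p includes subclinical 3, its highest cow (75589), and was not computed without that cow. By the SD of log2 signal over all cows miR-423-5p was number 5 of the 27 (1.01), beside 0.92 for miR-24-3p and 0.82 for miR-126-3p. Within groups, the SD of log2 signal of miR-423-5p was number 19 of 27 in clinical cows (0.43), number 4 in subclinical cows (1.23) and number 5 in healthy cows (0.99). On 1 scale for known and numbered rows the same SD was 1.49 in clinical, 1.17 in subclinical and 1.65 in healthy cows, number 15, 8 and 3 of the 27, so the order of the groups depends on the scale. The difference between groups was not tested.

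**Figure D3:**
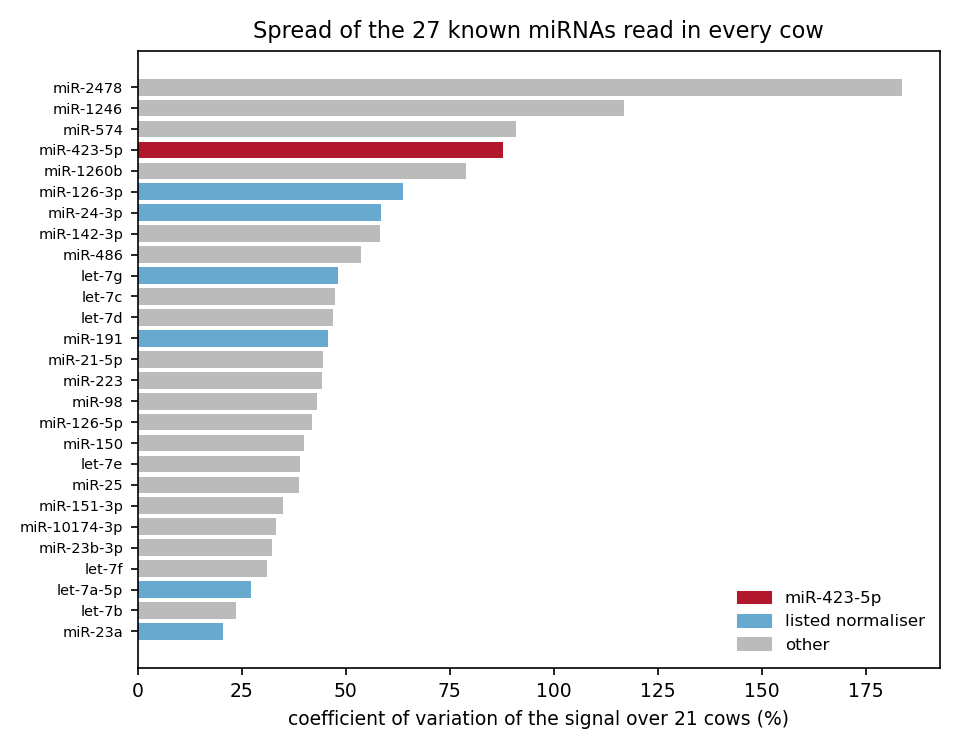
Coefficient of variation of the deposited signal over 21 cows for the 27 known miRNAs read in every cow, with listed normalisers in blue and miR-423-5p in red. miR-423-5p stands at 87.8%, above each of the 6 listed normalisers that were read in every cow (20.6 to 63.7%).

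Of the 24 listed normalisers 23 were in the table by that name and 21 could be tested. limma called 0 of the 21 in each comparison, beside 1.53%, 3.05% and 0% of the known rows. At such shares, 0 of 21 is no evidence that the listed normalisers were steady. At an unadjusted p under 0.05 limma had 1 of them in clinical versus subclinical (let-7a-5p), 3 in subclinical versus healthy (let-7a-5p, miR-15b and miR-320a) and 0 in clinical versus healthy, beside 12.4%, 13.4% and 6.19% of all rows at that threshold. The median log2 difference of the 21 was −1.71, 0.47 and 0.36, against −1.64, 2.23 and 0.19 over the known miRNAs tested. Of the 4 abundant ones, let-7a-5p had 187648 ± 48227 in clinical, 127520 ± 42747 in subclinical cows and 181765 ± 10032 in healthy cows (SD, n = 7). Its log2 difference was 0.59 (limma, SE 0.18, adjusted p = 0.0837) for clinical minus subclinical and −0.58 (SE 0.18, adjusted p = 0.131) for subclinical minus healthy. miR-191 had 13577 ± 5451 in clinical, 14798 ± 5670 in subclinical cows and 11809 ± 7637 in healthy cows (SD, n = 7). miR-23a had 55311 ± 9937, 47806 ± 10545 and 56214 ± 11750, and miR-24-3p 8646 ± 1646, 11079 ± 7796 and 9796 ± 6618, in the same order.

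miR-423-3p, the other arm of the hairpin, was scarce. It had 21 reads in 5 of 7 clinical, 107 reads in 6 of 7 subclinical and 36 reads in 3 of 7 healthy libraries. Clinical cows ran from 0 to 1496 units of signal (median 307), subclinical cows from 0 to 2088 (median 709) and healthy cows from 0 to 6306 (median 0). The limit that 0 reads allow, set at 3 reads (a rounded one-sided 95% limit), was a signal of 1474 in clinical 2, 963 in subclinical 2 and 2252 in healthy 6, so a 0 in these libraries does not show that the arm was missing. The groups overlapped throughout, and the healthy range was set by healthy 5 with 29 of the 36 healthy reads.

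Mean miR-423-3p was 467 ± 534 in clinical, 788 ± 666 in subclinical cows and 1135 ± 2318 in healthy cows (SD, n = 7). By limma its log2 difference was −1.81 (95% interval −6.67 to 3.05, adjusted p = 0.793) for clinical minus subclinical. It was 3.69 (−1.17 to 8.55, limma adjusted p = 0.468) for subclinical minus healthy and 1.88 (−2.98 to 6.74, limma adjusted p = 0.884) for clinical minus healthy. In both comparisons with healthy cows the sign of the log2 difference is opposite to that of the means. Healthy 5 carried the healthy mean, which was 273 without it and so below the clinical and the subclinical mean, and 4 of the 7 healthy libraries were at 0. With a pseudocount of 100 in place of 1 the differences were −0.81, 0.95 and 0.14 (SE 0.90) for clinical minus subclinical, subclinical minus healthy and clinical minus healthy, so their size depends on the pseudocount. None of these differences passed.

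The 5p arm dominated the reads of MIR423. It took 596 of 617 reads of both arms in clinical libraries, or 96.6% (exact Clopper-Pearson 95% interval 94.8 to 97.9), 2590 of 2697 in subclinical libraries, or 96.0% (95.2 to 96.7), and 430 of 466 in healthy libraries, or 92.3% (89.5 to 94.5). These pooled shares weight each library by its reads, and their intervals leave out the spread between cows. They are no test of a difference between groups. Without healthy 5 the healthy share was 97.8% (95.6 to 99.1). Over all 21 libraries there were 22.0 reads of the 5p arm per read of the 3p arm.

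The arm share was not the same in every cow. In healthy 5 the 5p arm took 79.6% of 142 reads (72.0 to 85.9). In subclinical 4 it took 86.8% of 189 reads (81.1 to 91.3), and in subclinical 5 it took 91.3% of 518 reads (88.5 to 93.6). In subclinical 3, with the highest 5p signal, it took 98.7% of 1007 reads (97.8 to 99.3), and in subclinical 1 it took 99.0% of 315 reads (97.2 to 99.8). The intervals of subclinical 4 and 5 do not meet those of subclinical 1 and 3, so cows of 1 group differed by more than counting error. The 7 libraries without a 3p read held only 15 to 83 reads of both arms, and the pooled share of the 3p arm, 4.34%, would give from 0.65 to 3.6 reads there.

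**Figure D4:**
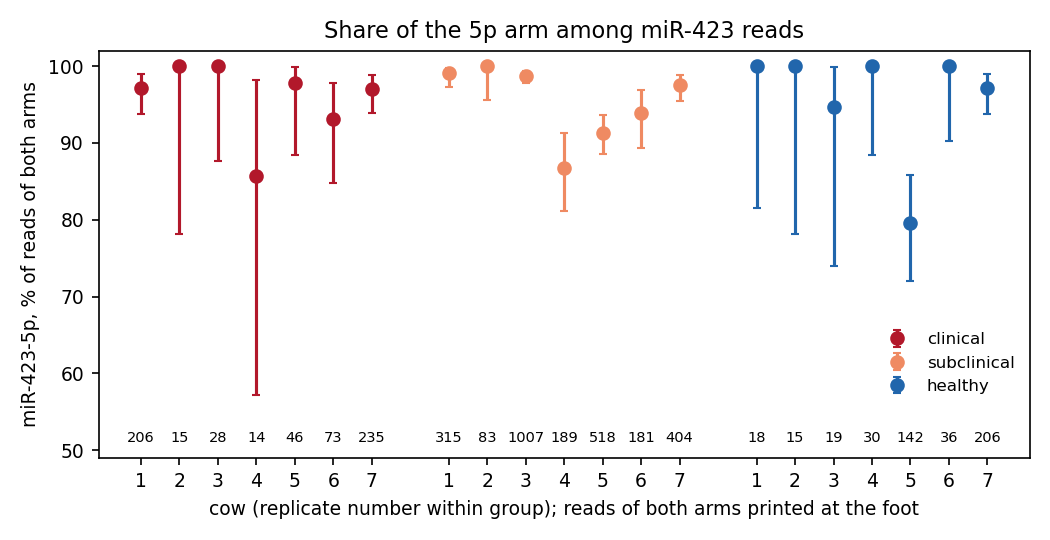
Percent of miR-423 reads that came from the 5p arm in each cow, with exact Clopper-Pearson 95% intervals and the reads of both arms printed at the foot. Most cows lie above 90%, and healthy 5 (79.6%), clinical 4 (85.7% of 14 reads) and subclinical 4 (86.8%) lie below.

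Likeness to miR-423-5p was measured as the Pearson correlation of log2(signal + 1) over the 21 libraries, for the 26 other known miRNAs read in every library. These values share a library total, so when 1 abundant miRNA is high the rest are lowered, and they are given as a description. The most alike were miR-191 (r = 0.57), miR-150 of lymphocytes (0.45), miR-1246 (0.42), miR-24-3p (0.39), miR-486 of red cells (0.34), miR-21-5p (0.24), miR-1260b (0.23) and miR-223 (0.22). The least alike were miR-126-5p of endothelial cells (−0.71), let-7a-5p (−0.61) and let-7f (−0.59), which were among the most abundant miRNAs of these libraries. Spearman's rho was 0.58 for miR-191 and −0.71 for miR-126-5p. Without the 2 libraries farthest from the median of miR-423-5p, subclinical 3 and subclinical 1, r was 0.58 for miR-191, −0.60 for miR-126-5p, 0.13 for miR-1246 and −0.01 for miR-486. The 8 most alike miRNAs then shared 6 with the 8 named above. As deviations from the group means, r was 0.64 for miR-191 and −0.64 for miR-126-5p.

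Within groups of 7 the pattern was not uniform. For miR-191 r with miR-423-5p was 0.85 in clinical, 0.76 in subclinical and 0.57 in healthy cows. For miR-126-5p it was −0.11, −0.73 and −0.75, and for miR-1246 it was −0.12, 0.86 and −0.71. In the subclinical cows with the most and the least miR-423-5p, miR-126-5p had a signal of 60000 in subclinical 3 and of 345245 in subclinical 4, and miR-1246 had 279392 in subclinical 3 and 28558 in subclinical 4. On the joint scale of known and numbered rows r was 0.89 for miR-191 and 0.48 for miR-126-5p. That scale multiplies all known miRNAs of a library by 1 factor, and r was above 0 for 25 of the 26 miRNAs on it, against 10 of 26 as deposited. miR-191 was number 1 and miR-126-5p number 24 of 26 there.

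**Figure D5:**
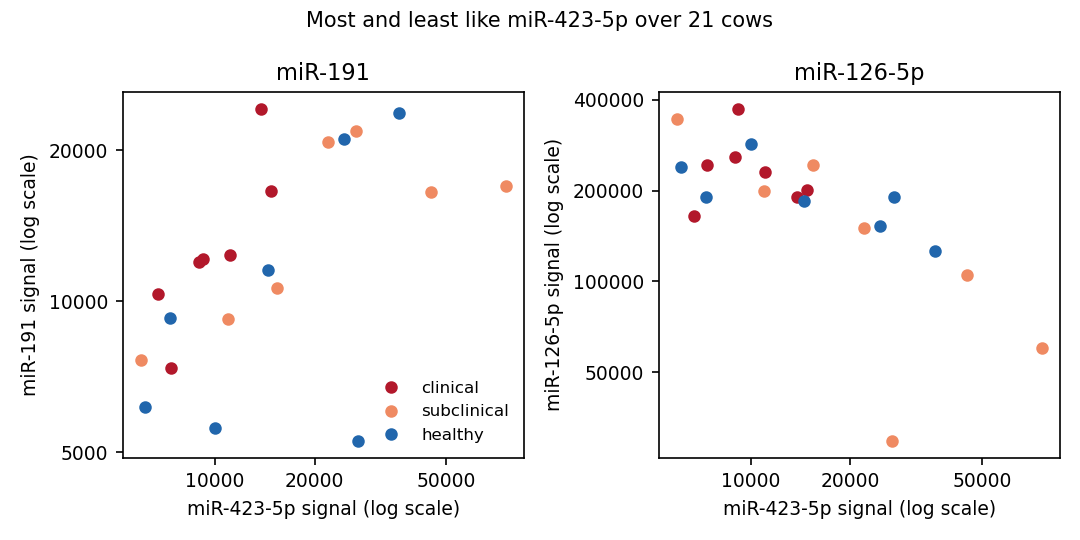
Signal of miR-191 and of miR-126-5p against that of miR-423-5p in 21 cows (all axes log scale, reads per 1000000 of the known scaling total), coloured by group. miR-191 is higher where miR-423-5p is higher (r = 0.57), and miR-126-5p is lower (r = −0.71).

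Marker lists of possible sources were summed as a percent of known reads. The platelet and leukocyte list (10 of 10 in the table) took 23.7 to 43.5% in clinical, 14.2 to 41.0% in subclinical and 23.4 to 33.7% in healthy libraries. It was lowest in subclinical 3, at 14.2%, and highest among subclinical cows in subclinical 4, at 41.0%, the cows with the most and the least miR-423-5p. The abundant member miR-126-5p, described above as of endothelial cells, made up 5.85% of known reads in subclinical 3 and 33.8% in subclinical 4. It reached 36.4% in a clinical and 27.7% in a healthy library. The full sum is therefore not a share of platelets and leukocytes alone. The other 9 members together took 6.48 to 12.2% in clinical, 6.62 to 14.9% in subclinical and 4.84 to 12.9% in healthy libraries, ranges that overlap. These members still include miR-126-3p, also named above as of endothelial cells. These 9 took 8.34% in subclinical 3 and 7.23% in subclinical 4, and miR-191 had a signal of 16958 and 7649 in those cows. The red cell list (6 of 6) took 1.98 to 3.82% in clinical, 2.45 to 6.48% in subclinical and 1.90 to 4.20% in healthy libraries. Most abundant in it was miR-25, with a mean signal of 15294, 22726 and 16324 in clinical, subclinical and healthy cows. The members miR-451 and miR-144 were scarce. miR-451 had 23, 62 and 9 reads, and miR-144 had 0, 1 and 3, in the same order. The red cell sum thus rests mainly on other members. The hepatocyte list (6 of 6) took 0.043 to 0.30%, 0.21 to 3.23% and 0.046 to 1.02% in clinical, subclinical and healthy libraries. Its highest value was in subclinical 3. Of the 29 markers on the 5 lists 24 could be tested, and limma called 1 of them (4.17%, beside 4.01% of all rows and 1.53% of known rows), miR-122 of hepatocytes, in clinical versus subclinical (log2 difference −8.35, adjusted p = 0.0446), which is named here after its values were seen. It was at 0 in 4 of 7 clinical libraries, so the size of that difference depends on the pseudocount. The udder epithelium list (5 of 5) stayed at or below 0.15, 0.085 and 0.21%, and the smooth muscle list (2 of 2) at or below 0.030, 0.15 and 0.25%, in clinical, subclinical and healthy libraries. No marker was at 0 in all libraries. The part of these sources in the level of miR-423-5p was not tested.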

How the data were processed

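Per the labels' protocols, RNA was extracted from serum vesicles with the miRNeasy Mini kit and made into libraries with a TruSeq small RNA kit. The submitters' processing notes name Bowtie, edgeR and the build ARS-UCD1.2 without a role. No source used here describes trimming, counting or vesicle isolation. The table deposited by the authors holds a signal in reads per 1000000, scaled separately for the 298 known and 549 numbered rows. Known rows exceed 1000000 by 2.06 to 5.39% in sum, so the values were not read as TPM. Dividing by the step of each block turned 10115 of 10115 nonzero values into whole numbers (to 0.05 reads), and these are the reads quoted. Because a column holds 2 steps, no count model was fitted. No 2 libraries were alike within sampling noise (smallest chi-square per degree of freedom 2.63).

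limma 3.58.1 (R 4.3.3) was fitted with a trend to log2(signal + 1) over 3 group means, for the 598 rows whose signal reached 1 in 7 or more libraries. The code was run on simulated reads with large known changes in clinical cows, for clinical versus healthy alone. All rows had the same fixed spread there, so the run checks the code and not the error rate in these data. Tests were two-sided with Benjamini-Hochberg adjustment over all rows and a threshold of 0.05. Other steps used Python 3.11.15, numpy 2.4.6, pandas 2.3.3, scipy 1.17.1 and matplotlib 3.10.9. The labels number the samples and say no more of their origin, so p-values measure the spread between these samples. The column of replicate 7 of each group carries another number in the table than in its title, and was matched by the column name that its label gives. Named miRNAs were both arms, the 8 most and 3 least alike, the rank neighbours, miR-1246, and listed normalisers that are called or among the 4 most abundant. The members and lists were chosen with earlier results of these data known. The rule also named miRNAs that share a seed, which were not used here because no miRNA sequences were at hand. Chosen after seeing the data were the likeness without the 2 farthest libraries, the platelet and leukocyte sum without miR-126-5p, the spread on 1 scale, and the ratios looked at unlogged as well as on the log2 scale.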

Additional observations from a re-analysis of the deposited data

Results flagged for a closer look

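Among 33 sets of 7 values looked at (the signal of both arms, the arm share, and the 4 ratios of miR-423-5p to a listed normaliser, each as a ratio and as its log2, in 3 groups), a single cow stood apart in 4. For normally distributed values chance gives about 1 in 20 for each set. Unlogged ratios, arm shares and signals with several values at 0 need not be so distributed, so that rate may not hold for them. The sets overlap and are not independent. The gap to the next cow had to exceed 0.568 of the range. In healthy 5 the miR-423-3p signal was 6306, against 0 to 1081 in the other healthy cows, a gap of 0.829 of the range. Its share of the 5p arm was 79.6%, against 94.7 to 100% in the others, a gap of 0.742 of the range, and both values rest on the same 29 reads of the 3p arm. Its miR-423-5p signal, 24571, lay within the healthy range. In healthy 6 the ratio of miR-423-5p to miR-191 was 5.14, against 0.79 to 1.8 in the others, a gap of 0.768 of the range that rests on 7 reads of miR-191. In healthy 3 the ratio of miR-423-5p to miR-24-3p was 6, against 0.63 to 2.73 in the others, a gap of 0.609 of the range that rests on 3 reads of miR-24-3p. On the log2 scale neither of these ratios stood apart. The log2 ratio to miR-191 in healthy 6, 2.36 against −0.34 to 0.85 in the others, fell just short of the required gap. The causes were not tested.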

How the results depend on the processing

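Of 339 pairs of a result and an alternative, 23 moved and none changed sign. A count was taken as moved when it differed by more than 1.5 times, a miR-423-5p difference when it shifted by over 0.946 (the SD between cows, log2), and miR-423-3p by its side of the threshold. That shift is larger than the main miR-423-5p differences for subclinical minus healthy (0.53) and clinical minus healthy (−0.58). A miR-423-3p difference could change in size without being taken as moved. The number that moved is therefore no measure of how steady these differences are. On 1 scale for known and numbered rows the miR-423-5p log2 difference was −2.80 (clinical minus subclinical) and 2.34 (subclinical minus healthy). Without 1 library it ranged from −1.41 to −0.80, 0.22 to 0.83 and −0.79 to −0.37 for clinical minus subclinical, subclinical minus healthy and clinical minus healthy, with the same sign in each of 21 fits. limma's calls in subclinical versus healthy (12) went to 6 with median-ratio scaling, to 6 without miR-1246 in the scale and to 0 without the 3 libraries under 2000 known reads, and from 6 to 26 without 1 library (26 without healthy 7). Its calls in clinical versus subclinical (24) ranged without 1 library from 14 (without subclinical 1 or subclinical 3) to 26, with 15 without subclinical 5, and were 18 to 29 under the other settings. Without clinical 3, subclinical 6 or subclinical 7, 1 listed normaliser, let-7a-5p, passed there (limma adjusted p = 0.0312 to 0.0401), so its count ranged from 0 to 1. miR-423-3p passed in no alternative, with limma adjusted p from 0.210 to 0.985, or 0.257 to 0.978 without 1 library. Spearman's rho, the joint scale and deviations from group means shared 7, 6 and 7 of the 8 most alike miRNAs.

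Same-numbered cows deviated together (r over 0.1) in only 3 of 21 pairs, so the numbers were not taken as pairs. With the replicate block limma called 23 miRNAs in clinical versus subclinical, 8 in subclinical versus healthy and 0 in clinical versus healthy. The 2 planned count-model tests were not run. A column holds 2 read steps, and a fit to the reads of each block was not tried. In libraries where miR-423-3p had 0 reads, both arms together had 15 to 83 reads.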
